A study of Mus musculus with 4 samples.

Results

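The 37 genes described here write, erase or read histone acetylation, or hold the enzymes in corepressor complexes. They were taken as a named list, 37 of the 21755 protein-coding genes on the autosomes and the X chromosome: 9 writers, 17 erasers, 7 readers and 4 corepressor scaffolds. Acetylation of lysine 27 of histone H3 (H3K27ac), itself a product of this machinery, was mapped by chromatin immunoprecipitation and sequencing in the left cerebral cortex. The mice were adult B6CASTF1/J females, the first generation of a cross between C57BL/6J and CAST/EiJ, aged 2 months. The samples form a group of 4, made of pool I and pool J, each pool joining 4 biosamples and sequenced as 2 technical libraries. No other tissue, treatment or control group belongs to the series, so each value below describes this tissue alone. Because the animals were pooled and each pool gave 1 peak list, the values carry no replicate error, and a pool's list is set beside the other's in place of a standard deviation.

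Histone acetyltransferases, the writers, move an acetyl group from acetyl-CoA to lysines of histone tails, which opens chromatin and makes docking sites for proteins with a bromodomain, the readers. Histone deacetylases (HDACs) and the NAD-dependent sirtuins, the erasers, remove the group, and most class I HDACs act within complexes built on scaffolds such as Sin3a, Ncor1 and Rcor1. In the brain, loss of a working copy of CBP, p300, MOZ or MORF in people causes developmental disorders, and Hdac2 restrains memory formation in mice.

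A promoter peak was a peak of the replicated list that reached within 1000 bp of a transcription start site (TSS) annotated for the gene on the mouse assembly mm10. The signal of a peak is the authors' own value, it has no stated unit, and it was used only to rank and describe peaks within a list. A percentile gives the rank of a gene's highest promoter peak among the 12719 coding genes with a promoter peak in the replicated list, and a pool's percentile is the rank in that pool's list. The number of reads behind the lists is unknown, so a gene without a peak had none at this depth and is not shown to lack the mark. In whole cortex, a mark on fewer cells and a weaker mark on each cell cannot be told apart.

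Markers of cortical cells were compared with the label of the tissue. All 6 neuronal marker genes (Snap25, Syt1, Slc17a7, Camk2a, Gad1 and Gad2) had a promoter peak, as did 4 of 4 astrocyte, 3 of 4 oligodendrocyte, 3 of 4 microglial and 4 of 4 endothelial markers; among all coding genes the share was 58.5%. The median percentile of the marked promoters was 71.6 for neuronal, 34.4 for oligodendrocyte, 25.8 for astrocyte, 12.3 for endothelial and 10.5 for microglial markers. Single genes departed from these medians. The neuronal Gad1 and Gad2 had percentiles of 8.76 and 5.2, and the endothelial Slc2a1 had 91.6. Of the markers of other places, 1 of 4 for meninges had a promoter peak, and 0 of 4 did for choroid plexus, for hindbrain or spinal cord and for liver. The replicated list held 72027 peaks, the pool I list 69834 and the pool J list 49839 on the chromosomes used. Pool I gave the higher signal at 92.5% of the coding genes with a promoter peak in both pools, and it did so at 33 of the members.

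Below are stretches of the promoters that mark the extremes of the family, each read 5′ to 3′ on the strand of the gene and ending near its start. Coordinates are on GRCm38, which is mm10. Brd2 and Ep300 had the highest signals and Crebbp is the paralogue of Ep300. Kat6b had the most distal peaks, Kat7 a high and narrow peak, and Hdac2 the highest promoter of the deacetylases. Hdac9 is poor in CpG, Sirt5 had the lowest signal, and Brdt had no promoter peak. Capitals mark matches to the SP/KLF box GGGCGG, the CCAAT box, the ETS core CCGGAAG or the NRF1 motif GCGCATGC on either strand.
Brd2 (chr17:34122601-34122831, minus strand): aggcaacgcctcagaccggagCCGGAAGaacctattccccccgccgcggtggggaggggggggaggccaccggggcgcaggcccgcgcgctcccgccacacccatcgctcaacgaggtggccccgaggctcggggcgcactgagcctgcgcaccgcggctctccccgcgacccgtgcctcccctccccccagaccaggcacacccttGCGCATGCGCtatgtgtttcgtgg
Ep300 (chr15:81585147-81585396, plus strand): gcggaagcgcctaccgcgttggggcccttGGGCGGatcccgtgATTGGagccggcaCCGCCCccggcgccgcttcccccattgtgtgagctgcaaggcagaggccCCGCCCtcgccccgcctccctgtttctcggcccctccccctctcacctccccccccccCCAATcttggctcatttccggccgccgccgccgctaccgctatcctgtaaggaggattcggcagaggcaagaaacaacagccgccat
Crebbp (chr16:4213998-4214247, minus strand): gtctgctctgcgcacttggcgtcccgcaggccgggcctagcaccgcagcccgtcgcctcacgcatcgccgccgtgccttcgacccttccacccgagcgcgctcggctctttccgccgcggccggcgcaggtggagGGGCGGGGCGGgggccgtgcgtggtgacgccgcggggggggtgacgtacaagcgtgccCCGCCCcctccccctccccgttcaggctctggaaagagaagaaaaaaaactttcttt
Kat6b (chr14:21499535-21499769, plus strand): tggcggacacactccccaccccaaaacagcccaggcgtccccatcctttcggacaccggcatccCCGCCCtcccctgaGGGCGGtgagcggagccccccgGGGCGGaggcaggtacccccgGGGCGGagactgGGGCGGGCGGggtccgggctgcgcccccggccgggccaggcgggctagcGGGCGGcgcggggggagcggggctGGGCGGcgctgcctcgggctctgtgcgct
Kat7 (chr11:95310247-95310496, minus strand): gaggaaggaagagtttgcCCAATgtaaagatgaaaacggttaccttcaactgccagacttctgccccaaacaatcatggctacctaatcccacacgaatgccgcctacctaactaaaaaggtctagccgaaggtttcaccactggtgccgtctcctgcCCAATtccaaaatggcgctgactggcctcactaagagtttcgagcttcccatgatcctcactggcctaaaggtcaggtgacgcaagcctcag
Hdac2 (chr10:36974294-36974543, plus strand): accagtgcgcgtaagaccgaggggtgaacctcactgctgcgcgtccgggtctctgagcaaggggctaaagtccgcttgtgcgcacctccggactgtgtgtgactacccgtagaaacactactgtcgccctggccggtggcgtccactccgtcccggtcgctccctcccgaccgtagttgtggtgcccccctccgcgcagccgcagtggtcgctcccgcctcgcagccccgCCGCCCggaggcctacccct
Hdac9 (chr12:34528890-34529139, minus strand): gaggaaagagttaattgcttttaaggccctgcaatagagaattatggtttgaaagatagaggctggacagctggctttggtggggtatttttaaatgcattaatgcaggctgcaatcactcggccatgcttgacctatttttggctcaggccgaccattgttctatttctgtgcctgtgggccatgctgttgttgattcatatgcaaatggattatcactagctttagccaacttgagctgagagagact
Sirt5 (chr13:43365285-43365495, plus strand): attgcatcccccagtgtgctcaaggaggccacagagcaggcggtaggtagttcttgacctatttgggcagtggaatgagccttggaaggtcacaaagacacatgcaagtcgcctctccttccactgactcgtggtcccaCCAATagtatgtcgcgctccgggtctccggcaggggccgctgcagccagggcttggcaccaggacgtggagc
Brdt (chr5:107330944-107331158, plus strand): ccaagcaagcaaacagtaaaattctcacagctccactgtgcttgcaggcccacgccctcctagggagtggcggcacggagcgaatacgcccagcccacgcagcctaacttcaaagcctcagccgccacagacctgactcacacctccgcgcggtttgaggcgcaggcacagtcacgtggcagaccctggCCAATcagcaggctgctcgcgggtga
The first 3 were read from the genome before the gene's first TSS in its highest peak, and the others come from RefSeq promoter windows of the GRCm38.p6 table. The Kat6b stretch was 79.6% G and C and held 8 SP/KLF boxes. The Hdac9 stretch was 43.6% G and C, with 2 CpG dinucleotides and no match to any of these motifs. The Brdt stretch was 62.3% G and C with 14 CpG dinucleotides, more than that of Hdac9, and had no peak over it. In the Brd2 stretch both NRF1 matches are the same palindromic bases read on either strand.

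Over the family as a whole, the promoters were marked almost without exception. In the replicated list 36 of the 37 members (97.3%) had a promoter peak, against 58.5% of all coding genes. Coding genes with a CpG-rich promoter (at least 55% G and C and an observed to expected CpG ratio of at least 0.6 over 1000 bp) had one in 90.8% of cases. The 26 members with a CpG-rich promoter all had a promoter peak. Of the 11 members without one, 10 had a promoter peak, against 33.0% of the coding genes without a CpG-rich promoter. Several of the 11 only just missed the cutoff, so that share is a loose comparison for them. Kat8 had 54.9% G and C and a ratio of 0.585, and Sirt5 and Kat2a had ratios of 0.572 and 0.567. Hdac8 and Hdac9 lay farthest below it, with ratios of 0.411 and 0.217. The same 36 members had a promoter peak in the lists of both pools, where the share of coding genes was 54.7%. The gene without a promoter peak in any of these lists was Brdt, the BET bromodomain gene known for its role in the testis.

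The level of the mark was spread widely among the 36. Their median signal was 11, against 8.86 for all coding genes with a promoter peak and 9.66 for those with a CpG-rich promoter. The members ranged between 4.52 and 32.0. Their median percentile was 66.0, with 6 members at or above the 90th percentile, 24 at or above the 50th and 3 below the 25th. In the lists of the pools alone the median percentile was 55.3 in pool I and 56.7 in pool J, so the family lay nearer to the middle of each pool's list than of the replicated list. Coding genes with a CpG-rich promoter had 56.7 in the replicated list, 56.4 in pool I and 56.5 in pool J. In each pool the median of the members was thus close to that of CpG-rich genes. By role, the median percentile was 88.9 for writers, 57.7 for erasers, 57.2 for readers and 56.9 for corepressor scaffolds. The writers kept the highest median in each pool, with 84.8 in pool I and 89.3 in pool J. These medians describe the list and were not tested.

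**Figure D1:**
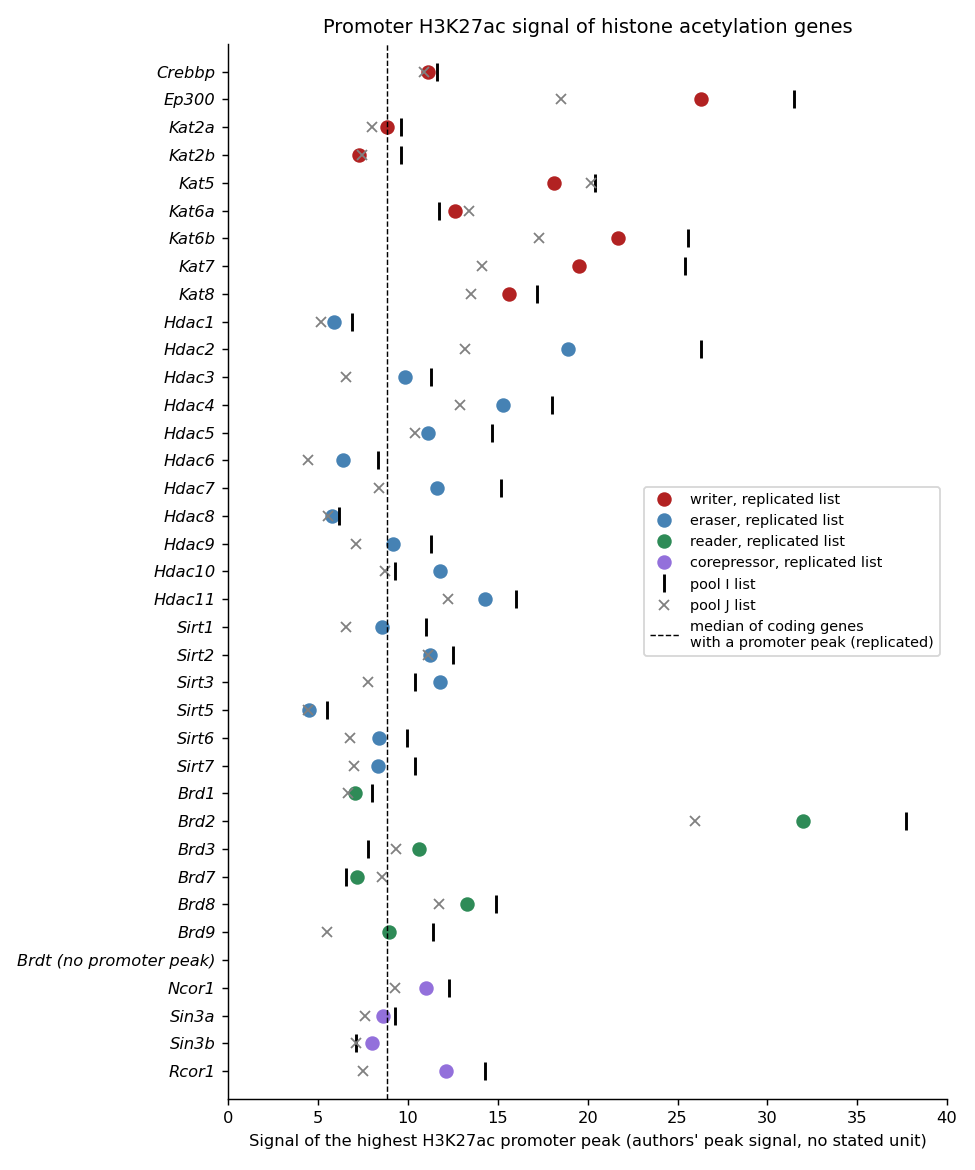
Signal of the highest H3K27ac promoter peak (x axis, the authors' peak signal) for each of the 37 genes (y axis), with a coloured dot for the replicated list, a bar for pool I and a cross for pool J. The dashed line is the median of coding genes with a promoter peak, 8.86. Brd2 and Ep300 lie farthest to the right, and Brdt has no point.

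Among the writers, p300 and CBP, the acetyltransferases that place H3K27ac, differed in the mark on their own promoters. Ep300, which encodes p300, had a peak at chr15:81585362-81587380 with a signal of 26.3 in the replicated list, 31.5 in pool I and 18.5 in pool J. It ranked 64th of 12719 genes. Crebbp, which encodes CBP, had 11.1 in the replicated list, 11.6 in pool I and 10.9 in pool J at chr16:4213834-4214903. Ep300 was thus above Crebbp in every list, at the 99.5th against the 66.6th percentile in the replicated list. The peaks were 2019 bp wide at Ep300 and 1070 bp at Crebbp. The printed stretch of each gene held 3 SP/KLF boxes, and that of Ep300 also held 2 CCAAT boxes.

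The GCN5 and PCAF acetyltransferases, catalytic subunits of the SAGA-type coactivator complexes, had middling promoters. Kat2a (GCN5) had a signal of 8.86 in the replicated list, 9.62 in pool I and 7.98 in pool J, at the 50th percentile. Its peak at chr11:100712075-100712888 also lies within 1 kb of a TSS of Hspb9. Kat2b (PCAF) had 7.26 in the replicated list, 9.62 in pool I and 7.42 in pool J, at the 36.5th percentile but with a wider peak of 1986 bp at chr17:53566851-53568836. Both had the same signal in pool I, and Kat2a had the higher one in pool J and in the replicated list.

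The 5 MYST acetyltransferases had the highest median percentile of any family with more than 2 marked members, 94.0, and each was above the 75th percentile in the replicated list. Kat6b (MORF), a catalytic subunit of the complex with Brpf1, had a signal of 21.7 in the replicated list, 25.6 in pool I and 17.3 in pool J at chr14:21498923-21500507. Kat7 (HBO1), which acts with the Jade and Brpf scaffolds, had 19.5 in the replicated list, 25.4 in pool I and 14.1 in pool J. Kat5 (TIP60), the enzyme of the NuA4 complex, had 18.1 in the replicated list, 20.4 in pool I and 20.2 in pool J, at chr19:5609107-5610862. These 3 were among the 6 members in the top decile. Of them Kat5 had nearly equal signals in the pools, but not equal ranks, at the 92.2nd percentile in pool I and the 98.8th in pool J. Kat6b was at the 97.7th and 96.8th in the same order, and Kat7 at the 97.6th and 91.3rd.

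Kat8 (MOF), which acetylates histone H4, followed with 15.6 in the replicated list, 17.2 in pool I and 13.5 in pool J at chr7:127911809-127913069. Kat6a (MOZ), the paralogue of Kat6b, had 12.6 in the replicated list, 11.7 in pool I and 13.4 in pool J, the lowest of the MYST genes in the replicated list. The Kat6a promoter was split into 3 peaks, of which the highest was 283 bp wide, the narrowest of any member. Kat7 was also split into 3 peaks, and its highest, at chr11:95309792-95310292, was 501 bp wide. A high signal and a narrow peak thus stood together at Kat7 in every list. Kat6a was at the 76.4th percentile in the replicated list, the 57.1st in pool I and the 88.9th in pool J. Its rank was therefore not high in both pools. Each of these widths is that of 1 peak of a split promoter, while Kat6b, Kat5 and Kat8 had peaks of 1585, 1756 and 1261 bp.

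Class I deacetylases differed widely from each other. Hdac2 had a signal of 18.9 in the replicated list, 26.3 in pool I and 13.2 in pool J at chr10:36973779-36975460. Its close paralogue Hdac1, found with it in the Sin3, NuRD and CoREST complexes, had 5.9 in the replicated list, 6.87 in pool I and 5.18 in pool J. Hdac2 stood at the 95.1st percentile and Hdac1 at the 24.8th, and Hdac2 was higher in every list. Hdac3, the enzyme of the Ncor1 complex, had 9.81 in the replicated list, 11.3 in pool I and 6.56 in pool J. The summit of its peak lies 175 bp from a TSS of the neighbour Rell2 and 306 bp from its own, and with each peak counted only for the gene nearest to its summit Hdac3 stood at the 34.6th percentile instead of the 57.7th. Hdac8, the class I enzyme that works outside these complexes and lies on the X chromosome, had 5.76 in the replicated list, 6.14 in pool I and 5.57 in pool J. Its 23.5th percentile was the lowest of the HDACs in the replicated list, and in pool J Hdac6 and Hdac1 were lower.

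Class IIa deacetylases, which shuttle between nucleus and cytoplasm and restrain MEF2 factors, were all above the 50th percentile in the replicated list and in pool I, while Hdac9 was at the 42.5th in pool J. Hdac4 had a signal of 15.3 in the replicated list, 18.0 in pool I and 12.9 in pool J at chr1:92180556-92181580. Hdac7 had 11.6 in the replicated list, 15.2 in pool I and 8.4 in pool J. Hdac5 had 11.1 in the replicated list, 14.7 in pool I and 10.4 in pool J at chr11:102229179-102231022. Hdac9, whose promoter was 42.9% G and C over 1000 bp, had 9.16 in the replicated list, 11.3 in pool I and 7.11 in pool J. The order of these 4 genes in the replicated list was Hdac4, Hdac7, Hdac5 and Hdac9, and Hdac5 and Hdac7 changed places in pool J.

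Of the class IIb enzymes, Hdac10, known as a polyamine deacetylase, had 11.8 in the replicated list, 9.27 in pool I and 8.7 in pool J. Its value in the replicated list was above that of either pool. Hdac6, the tubulin deacetylase on the X chromosome, had 6.37 in the replicated list, 8.31 in pool I and 4.43 in pool J. Hdac11, the lone class IV enzyme and an eraser of long-chain acyl groups, had 14.3 in the replicated list, 16.0 in pool I and 12.2 in pool J. Its peak at chr6:91152647-91158621 was 5975 bp wide, the widest of the members and 83rd of 12719 genes. In pool I it was 7151 bp wide, and in pool J 2509 bp, where the promoter held 2 peaks.

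The 6 sirtuins lay around the middle, with a median percentile of 47.3. Sirt3, the main mitochondrial deacetylase, had a signal of 11.8 in the replicated list, 10.4 in pool I and 7.76 in pool J. Its percentile was 71.6 in the replicated list but 49.1 in each pool, where Sirt2 ranked higher. The Sirt3 summit lies 131 bp from a TSS of Psmd13 and 199 bp from its own. With each peak counted only for the gene nearest to its summit, Sirt3 had no promoter peak in the replicated list. Sirt2, a tubulin deacetylase abundant in oligodendrocytes, had 11.2 in the replicated list, 12.5 in pool I and 11.1 in pool J. The Sirt2 summit lies 179 bp from a TSS of Nfkbib and 400 bp from its own, and with peaks counted only for the nearest gene Sirt2 stood at the 34.6th percentile instead of the 67.5th. For Sirt2 and Sirt3, the mark on the gene and on its neighbour cannot be told apart.

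Sirt1, the nuclear sirtuin with many targets beside histones, had its highest promoter peak of 8.58 in the replicated list, 11 in pool I and 6.57 in pool J over internal TSSs. The peak at its upstream TSS had 5.39 in the replicated list, 7.47 in pool I and 4.01 in pool J, lower than the internal one in every list. Sirt6 and Sirt7, chromatin-bound sirtuins, had signals of 8.4 and 8.31 in the replicated list, at the 46.4th and 45.6th percentiles. Sirt5, the mitochondrial desuccinylase, had the lowest promoter signal of the marked members, 4.52 in the replicated list, 5.5 in pool I and 4.41 in pool J, at chr13:43365162-43366190. It stood at the 13.8th percentile in the replicated list and at the 13.4th and 12.8th in pools I and J.

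BET readers spanned the whole range. Brd2, which binds acetylated histone H4 at active genes, had 32.0 in the replicated list, 37.7 in pool I and 26.0 in pool J, the highest of the members in every list. It ranked 8th of 12719 genes, and its peak at chr17:34119532-34124312 was 4781 bp wide, which ranked 191st. The summit lies 868 bp from the nearest TSS of Brd2 and 311 bp from that of the non-coding gene CR974462.3, and the peak also lies near a TSS of H2-DMa. With each peak counted only for the gene nearest to its summit, Brd2 stood at the 36.4th percentile on its other peak, of 6.86. Brd3 had 10.6 in the replicated list, 7.78 in pool I and 9.36 in pool J. For Brdt the nearest peak to a TSS was 27.9 kb away, at chr5:107359116-107360342 in an intron of Brdt itself, with a signal of 6.94 in the replicated list and 8.21 in pool I. In pool J the same place held 2 peaks, the higher of 5.66.

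The 4 other bromodomain genes had a median percentile of 43.4. Brd8, a subunit of the NuA4 complex, had the highest of them with 13.3 in the replicated list, 14.9 in pool I and 11.7 in pool J. Yet the summit of that peak lies 7 bp from a TSS of Kif20a. With each peak counted only for the gene nearest to its summit, Brd8 had no promoter peak in the replicated list. Brd9, of the non-canonical BAF complex, had 8.96 in the replicated list, 11.4 in pool I and 5.5 in pool J, beside a TSS of Trip13. Brd7, of the PBAF complex, had 7.16 in the replicated list, 6.55 in pool I and 8.53 in pool J. Brd9 was higher in pool I and Brd7 higher in pool J, so the order of these genes was not the same in the pools. Brd1, a scaffold of MYST acetyltransferases, had 7.06 in the replicated list, 7.98 in pool I and 6.68 in pool J.

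The corepressor scaffolds lay between the 42.9th and 73.1st percentiles. Rcor1 (CoREST), which joins Hdac1 and Hdac2 to a histone demethylase, had a signal of 12.1 in the replicated list, 14.3 in pool I and 7.49 in pool J. Ncor1, the scaffold of Hdac3, had 11 in the replicated list, 12.3 in pool I and 9.28 in pool J, and its peak also lies near a TSS of Pigl. Sin3a had 8.59 in the replicated list, 9.27 in pool I and 7.63 in pool J, and its paralogue Sin3b had 7.99 in the replicated list and 7.13 in each pool. The percentile of Sin3a was 48.2 with the window of 1000 bp around the TSSs of the basic annotation, 92.9 with a window of 2500 bp around the same TSSs, and 93 at the 5′ end of the gene record.

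The peaks were no wider than usual as a group. Their median width was 1143 bp, against 1138 bp for all coding genes with a promoter peak, and 4 of the 36, namely Ep300, Hdac7, Hdac11 and Brd2, reached 2 kb, against 18.3% of those genes. More than 1 promoter peak was found at 19 members (52.8%), against 42.5% of the coding genes with a promoter peak, and at 5 members there were 3 or more. The highest peak of 13 members also lay within 1 kb of a TSS of another gene, a coding one in 9 cases. The shares of all coding genes with such a shared peak, or with 3 or more promoter peaks, are not given here. These 2 counts therefore do not set the members apart from other genes.

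**Figure D2:**
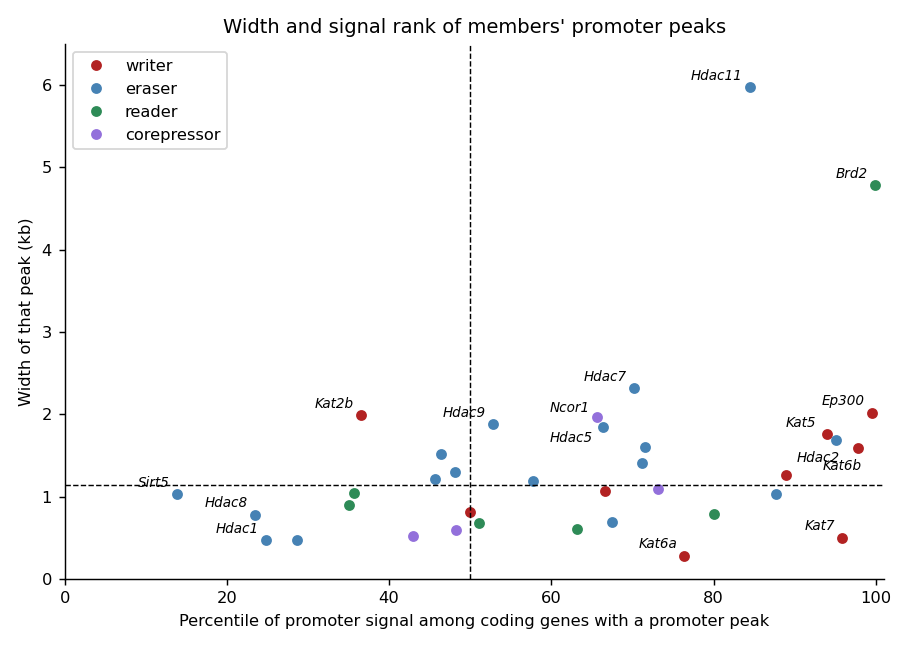
Percentile of promoter signal among coding genes with a promoter peak (x axis) against the width of that peak in kb (y axis), replicated list, 36 members coloured by role. Dashed lines mark the 50th percentile and the median width of coding genes, 1138 bp. Hdac11 and Brd2 stand above 4 kb, Kat7 pairs a high rank with a narrow peak, and Kat6a, at the 76.4th percentile, has the narrowest.

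Several members have promoters more than 1 kb apart, and the mark usually sat on some of them only. Such separate promoters were annotated for 11 members. Hdac7 had none at its most upstream start, a peak of 11.6 at an internal start at chr15:97829717-97832033, and 2 peaks at the most downstream, the higher of 4.46. The more downstream promoters of Hdac4, Hdac9, Sirt5, Brd1, Brd3 and Ncor1, the most downstream one of Kat6b, and the last 2 of the 4 of Sin3a had no peak in any of the replicated, pool I and pool J lists. When the 5′ end of the gene record alone was used, 31 members had a promoter peak, and Brd3, Hdac4, Hdac7, Hdac9 and Kat6b joined Brdt without one. At those 5 genes the marked start lies downstream of the outermost annotated end. The shares of all coding genes with separate promoters, with some of them unmarked, or with a peak at the 5′ end are not given here. The counts in this paragraph therefore do not set the members apart from other genes.

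Motifs were counted in the RefSeq promoter windows, which run from 250 bases before to 50 after a start and were available for 32 of the 37 members, 1 window per member. For Brd2, Ep300 and Crebbp these windows lie elsewhere than the stretches printed above, so matches in those stretches are not among the counts. The SP/KLF box was in 23 of them (71.9%), against 35.9% of all 32619 windows and 62.8% of the windows of coding genes with a promoter peak. The ETS core was in 8 (25%), among them Kat5, Kat7, Kat8, Sirt3, Sirt6 and Sirt7, against 8.92% of all windows and 16.7% of those with a promoter peak. The CCAAT box was in 14 (43.8%), against 37.6% and 37%. The NRF1 motif was in the windows of Sirt6 and Sirt7, and a TATA box (TATAAA) in Hdac8 and Sin3b. A match describes the letters and does not show that a factor binds.

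Between the pools, the ranks of most members moved little. The median difference in percentile was 7.14 points for the 36 members, against 7.78 for the 11906 coding genes with a promoter peak in both pools. Spearman's rho of promoter signal was 0.791 across the 36 members and 0.882 across those coding genes, and genes of a list share its library and depth. A difference of at least 20 points was found for 8 members (22.2%), against 14.3% of the coding genes. Hdac6, Hdac7, Brd9 and Rcor1 ranked higher in pool I. Crebbp, Kat6a, Brd3 and Brd7 ranked higher in pool J. The widest gap was at Brd7, at the 20.6th percentile in pool I and the 57.1st in pool J. Brd2, Ep300, Kat6b and Sirt5 differed by at most 1.7 points, where ranks near the ends of a list have little room to move.

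**Figure D3:**
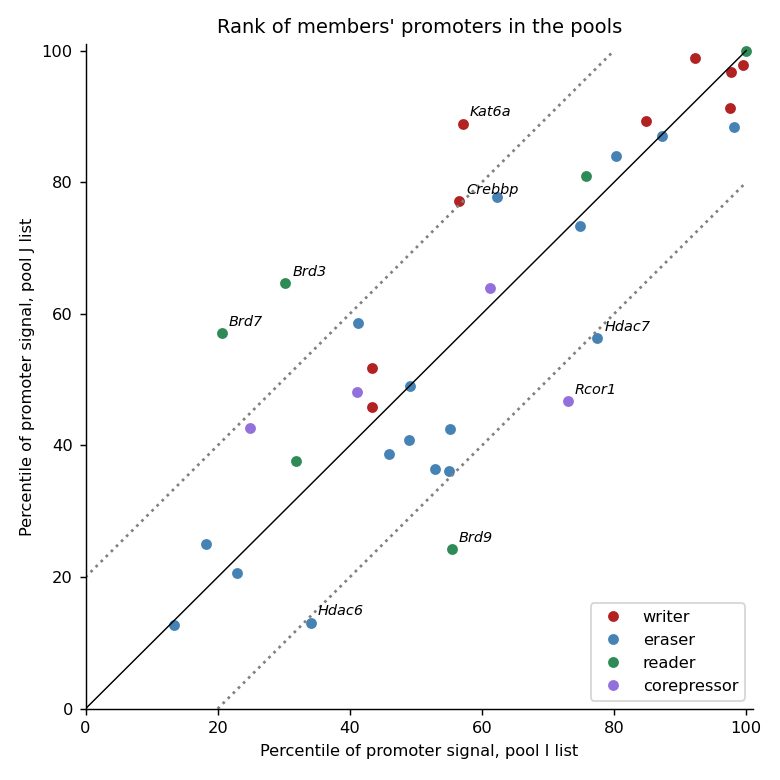
Percentile of promoter signal in the pool I list (x axis) against the pool J list (y axis) for 36 members coloured by role. The solid line is equality and the dotted lines lie 20 points from it; the 8 named genes lie outside them.

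Distal peaks, the candidate enhancers, were concentrated on a few members. A distal peak overlapped no promoter window and went to whichever coding gene had the closest TSS, up to 100 kb away; this pairs neighbours and does not show a target. In all 69 were assigned to members, 1.86 per gene against 1.85 over all coding genes. They belonged to 12 members (32.4%), against 39.6% of coding genes with at least 1. At least 5 were assigned to 6 members (16.2%), against 12.2%. The mean was thus that of all coding genes, while the spread among members was wide. Coding genes with a CpG-rich promoter, a class that held 26 of the 37 members, had a higher mean of 2.79. Of those 9579 genes, 5112 had at least 1 distal peak and 1790 at least 5, larger shares than among the members.

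Kat6b had the most, 19 in the replicated list, 20 in pool I and 12 in pool J, and 98.7% of coding genes had fewer. Hdac4 followed with 12 in the replicated list, 10 in pool I and 6 in pool J, Hdac5 with 9, 8 and 5 in the same order, Hdac7 with 7, 6 and 5, and Hdac9 with 7, 7 and 2. All 4 class IIa deacetylases were among the 5 members with the most distal peaks and together held 35. The 7 HDACs of class I, IIb and IV held 1 between them, at Hdac2. This contrast depends on giving each peak to the nearest gene alone. With every distal peak within 100 kb counted whichever gene was nearer, the class IIa genes had 50. On that count Hdac1 had 13, Hdac10 11, Hdac3 9 and Hdac11 7, and Hdac2, Hdac6 and Hdac8 had 1 each. Territory, the stretch nearest to a gene's TSSs, differs between genes, and per 100 kb of territory the class IIa genes had 5.56 distal peaks, the other HDACs 0.217 and all coding genes 2.63. Within the class this density was 30.4 at Hdac5, 9.11 at Hdac7, 5.17 at Hdac4 and 2.4 at Hdac9, so Hdac9 was below the value of all coding genes. Together the class IIa genes and Kat6b held 54 of the 69, or 78.3%. Members of 100 kb or longer had a mean of 6.14 distal peaks, against 5.75 for coding genes of that length. Crebbp, Kat2b and Hdac8, of 133, 106 and 221 kb, had 0 in the replicated list.

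**Figure D4:**
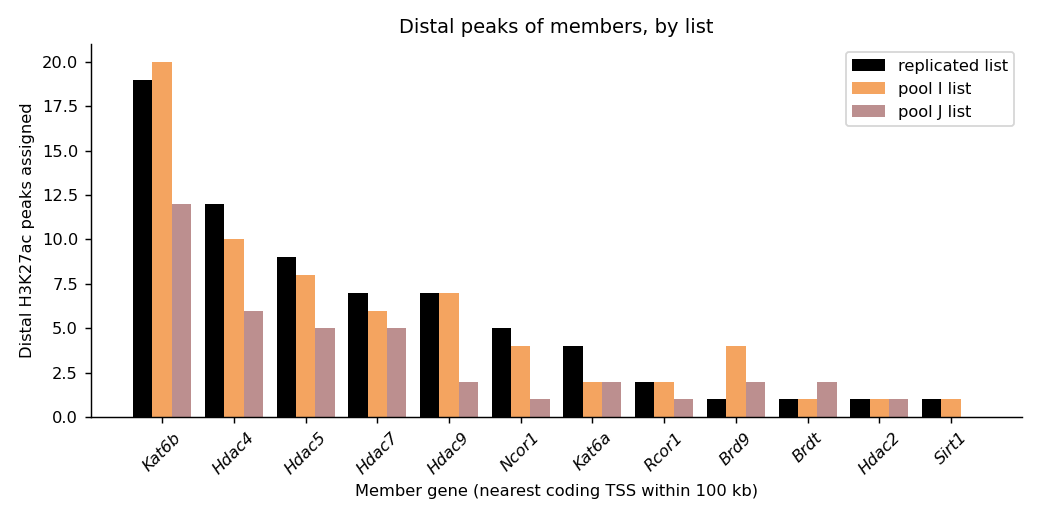
Number of distal H3K27ac peaks (y axis) assigned to each of the 12 members with at least 1 in the replicated list (x axis), with a bar each for the replicated, pool I and pool J lists. Kat6b and the 4 class IIa deacetylases lead, and the pool J list has fewer peaks than the pool I list at each of these 5.

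Most of the distal peaks lay within the gene they were assigned to. Of the 69, 64 were inside the member, 63 were in introns, 5 in exons and 1 between genes. The same shares over all distal peaks are not given here, so the location is not shown to be particular to the members. The distal peaks of members were not stronger than others, with a median signal of 3.27, against 3.37 for all distal peaks. Their median width was 564 bp against 528 bp. The lists of both pools held 30 of the 69, the pool I list alone 23, the pool J list alone 3 and neither list 13. Of all distal peaks of the replicated list, 46.2% were in the lists of both pools.

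The highest distal peak stood well above the others of the gene at Hdac5, Kat6b and Ncor1, and less so at Hdac4, Hdac7 and Hdac9. Hdac5 had a peak at chr11:102217544-102221000, 11.5 kb downstream of its marked TSS and with its summit in an exon, of 10.1 in the replicated list, 11.9 in pool I and 7.98 in pool J. It was at the 98.8th percentile of distal peaks and close to the signal of the Hdac5 promoter itself. All 9 Hdac5 peaks lay between 1.38 and 16.3 kb downstream. Kat6b had its highest at chr14:21522133-21524927 in an intron, 24.3 kb downstream of the marked TSS, of 7.53 in the replicated list, 9.62 in pool I and 6.58 in pool J. Ncor1 had 5 distal peaks, the highest at chr11:62430970-62432545 in an intron, of 7.62 in the replicated list, 9.42 in pool I and 6.12 in pool J, and the others at most 2.83. At Ncor1 only that peak was in the lists of both pools.

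Hdac4 peaks ran over the gene between 8.56 and 128 kb downstream of its marked TSS. The highest, at chr1:92099056-92100770, had 5.47 in the replicated list, 6.59 in pool I and 4.89 in pool J, and 5 of the 12 were in the lists of both pools. Hdac9, a gene of 870 kb, had its 7 between 2 and 56.9 kb, and peaks more than 100 kb from every TSS of the gene were not assigned to it. The highest, at chr12:34495851-34496653, had 4.33 in the replicated list, 5.19 in pool I and 3.71 in pool J, and the next had 4.07 in the replicated list. Hdac7 had its highest at chr15:97828023-97829614, of 6.76 in the replicated list, close to others of 6.46 and 6.29. In pool I that place was part of the 4081 bp promoter peak, and in pool J the peak over it had 6.31. Beyond the leading 6, Hdac2 had a peak at chr10:37047070-37048950, between genes and 73.2 kb from its TSS, of 9.16 in the replicated list, 12.1 in pool I and 6.31 in pool J.

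The 201 bases around the summits of the highest intronic peaks of Kat6b, Hdac4 and Hdac9 are given on the plus strand of GRCm38 to show sequence under a mark that lies away from any promoter. The capital is the summit base.
Kat6b (chr14:21523978-21524178, plus strand): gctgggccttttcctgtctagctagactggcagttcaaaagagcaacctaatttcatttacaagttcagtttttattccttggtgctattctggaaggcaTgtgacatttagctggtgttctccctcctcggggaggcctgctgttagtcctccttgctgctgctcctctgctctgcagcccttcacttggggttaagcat
Hdac4 (chr1:92099754-92099954, plus strand): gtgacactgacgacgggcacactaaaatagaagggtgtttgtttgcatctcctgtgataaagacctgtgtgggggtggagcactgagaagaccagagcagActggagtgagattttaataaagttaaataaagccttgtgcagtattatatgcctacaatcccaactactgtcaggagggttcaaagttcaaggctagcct
Hdac9 (chr12:34496193-34496393, plus strand): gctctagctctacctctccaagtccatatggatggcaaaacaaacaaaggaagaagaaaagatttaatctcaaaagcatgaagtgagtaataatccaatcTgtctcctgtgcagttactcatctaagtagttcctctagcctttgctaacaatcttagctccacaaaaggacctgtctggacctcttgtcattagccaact
They were 49.3%, 44.8% and 40.8% G and C, against 79.6% at the Kat6b promoter above. In windows of this size the E-box CAGATG was in 15 of the 69 distal peaks of members (21.7%), against 17.2% of all 52300 distal peaks, and the E-box CAGCTG in 8 (11.6%), against 13.6%. The AP-1 motif TGANTCA was in 0 of the 69, against 5.93%. None of the 3 windows held these motifs.

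**Figure D5:**
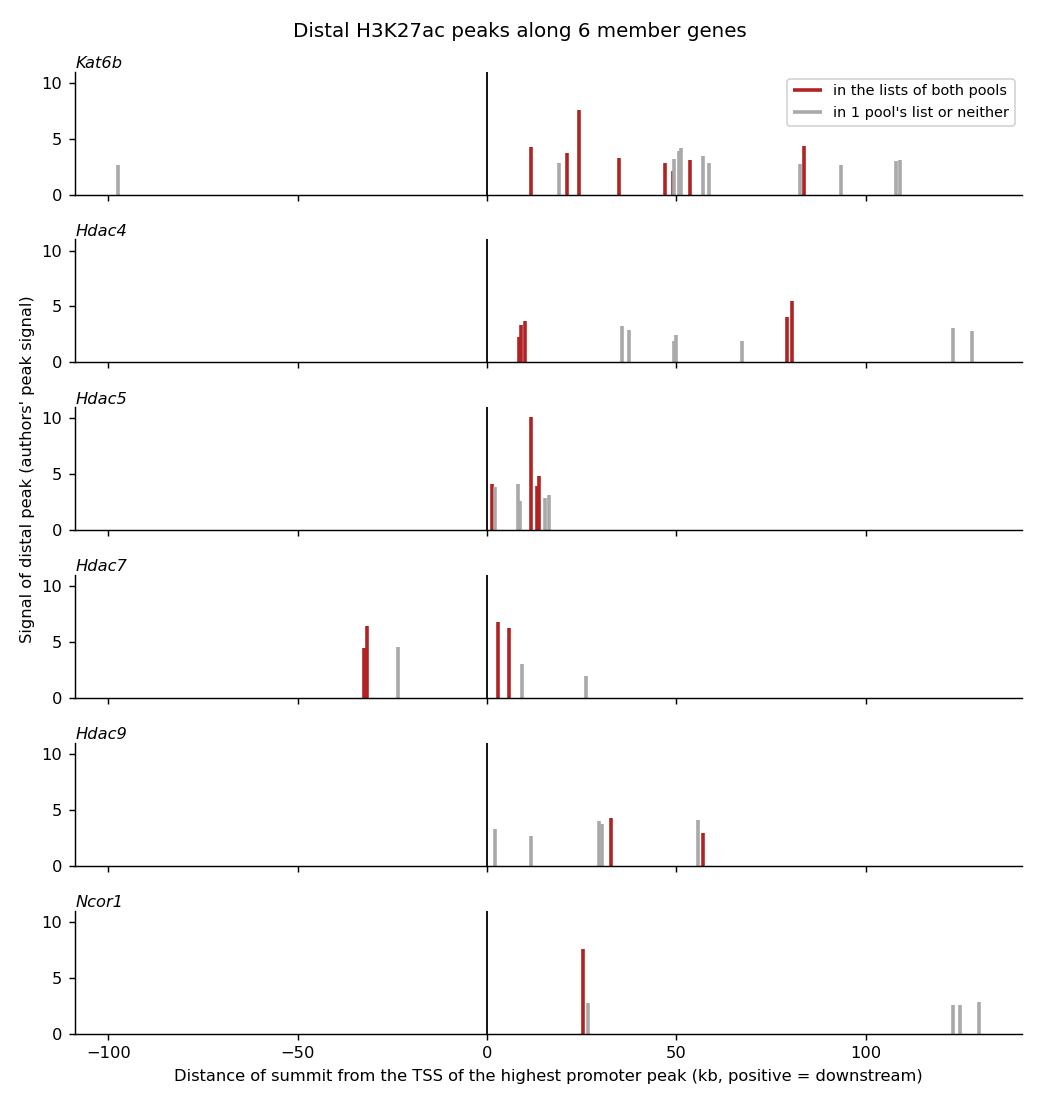
Signal of each distal peak (y axis, the authors' peak signal, replicated list) against the distance of its summit from the TSS of the gene's highest promoter peak in kb (x axis, positive downstream) for the 6 members with the most distal peaks. Red lines are peaks in the lists of both pools and grey lines the others; Hdac5 peaks lie within 16.3 kb and include the highest, of 10.1.

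The partners of these enzymes also carried the mark at nearly all promoters. Over 5 further lists of the pathway, 120 of 123 genes (97.6%) had a promoter peak, against 58.5% of coding genes. A CpG-rich promoter was found at 108 of the 123, and of all coding genes with such a promoter 90.8% had a promoter peak. The median percentile of these lists together was 65.8 in the replicated list, 65.7 in pool I and 71.1 in pool J, against 66.0, 55.3 and 56.7 for the members. The medians of members and partners were thus close in the replicated list, and the partners had the higher one in each pool. All 35 writer complex partners had one, with the highest signals at Tada3 (35.2), an adaptor of the SAGA-type complexes, and Epc1 (26.0), of the NuA4 complex. All 36 eraser complex partners had one, led by Mbd3 (20.1), of the NuRD complex, and Suds3 (19.2), of the Sin3 complex. Of the other acetyl-lysine readers 29 of 30 had one, led by Yeats4 (25.2) and Zmynd8 (24.5). Phf10, of the PBAF complex, had none in the replicated list or in pool J, and a peak of 2.95 in pool I.

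Among other acetyltransferases 7 of 8 had a promoter peak, led by the nuclear receptor coactivators Ncoa2 (16.0) and Ncoa1 (15.2), while Hat1, which acetylates newly made histone H4, had none. Of the genes that supply acetyl-CoA and NAD, 13 of 14 had one, led by Nadsyn1 (13.6) and Nampt (11.6), enzymes of NAD synthesis. Naprt had none in the replicated list or in pool J, and a peak of 3.67 in pool I. The median percentile was 75.1 for the writer partners, 58.5 for the eraser partners and 50.7 for the supply genes. It was 75.9 for the other acetyltransferases and 72.2 for the other acetyl-lysine readers, so a high median was not limited to the writers' side. Among both members and partners, the writers' side had a higher median than the erasers' side, which is a description and was not tested.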

How the data were processed

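The authors deposited 4 peak lists on mm10 (narrowPeak format): a replicated and a pseudoreplicated list of both pools, and a list for each pool. Per the labels, the immunoprecipitated mark was H3K27ac. Each peak has the authors' signal and the deposited −log10 p and −log10 q values; the display score the authors deposited was not used. The peak caller and the normalization of the signal are both not given in the sources used here. From these lists, peaks were matched to TSSs of the GENCODE vM21 basic annotation (34568 coding and non-coding genes, 55728 TSSs) with Python 3.11.15, numpy 2.4.6 and pandas 2.3.3, over 19 autosomes and the X chromosome. A promoter peak counted for every gene with a TSS within 1000 bp. Distal peaks went to the nearest coding TSS within 100 kb of the summit. Ranks use each gene's highest promoter peak. The matching was tested on simulated data. No test between groups was possible with 1 group, so members are described beside all coding genes. The members and lists were chosen with earlier results of these data known. All 37 members are named; of each other list the 2 genes with the highest signal and those without a promoter peak are named, and the highest distal peak at each of the 6 members with the most. Trerf1 was not analysed here. Depth is unknown, which leaves intervals for counting error unmade. Alternatives covered the list, the q value, the window, the choice of TSS and the distance limit.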

Additional observations from a re-analysis of the deposited data

How the results depend on the processing

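The number of members with a promoter peak lay between 31 and 36 under every alternative tried, and the median width kept within the spread of the pools. The median percentile of 66.0 was 55.3 and 56.7 with each pool left out in turn, 63.8 with only peaks of −log10 q of at least 5, and 55.6 with each peak counted only for the gene whose TSS is nearest to its summit. The 69 distal peaks were 41 in pool J alone, 73 in pool I alone, and 32 at −log10 q of at least 5. They were 249 when every distal peak within 100 kb counted whichever gene was nearer, which gave 34 members at least 1. The share of all coding genes with at least 1 under that last rule is not given here, so the 34 do not set the members apart. Other alternatives for these counts moved them by less than 1.5 times. Counts for the class IIa genes and Kat6b were examined under the same alternatives after the data were seen. Class IIa genes had 35 distal peaks, 18 in pool J alone and 18 at −log10 q of at least 5; Kat6b had 19, then 12 and 7. The share held by both fell to 28.1% when every peak within 100 kb counted, and otherwise lay between 69.9% and 78.3%. The cause was not tested. No paired analysis was possible because the samples form 1 group.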

Other observations

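Of the 25 members without a distal peak in the replicated list, 5 had some in a pool's list. Crebbp and Hdac8 had 2 each in pool I and 0 in pool J, Hdac11 had 2 in pool I and 1 in pool J, Kat2b had 1 in pool I and 0 in pool J, and Sin3a had 0 in pool I and 1 in pool J. Brd9, with 1 in the replicated list, had 4 in pool I and 2 in pool J. Among the other genes of the pathway, Zmynd8, a reader that recruits corepressors, had 22 distal peaks and a promoter peak of 7333 bp, wider than that of any member.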
